A study of Mus musculus with 23 samples.

Results

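Chemokines are small secreted proteins that draw leukocytes and progenitor cells along a gradient, and here 9 of the 23284 genes in the expression table were followed: Ccl2, Ccl7, Ccl5, Ccl20, Cxcl1, Cxcl5, Cxcl10, Cxcl12 and Cx3cl1. They were selected by symbol, with earlier results of these data known but without a threshold on their values, and all 9 were found. Expression had been measured by single-cell RNA-seq in 16 mouse bone marrow mesenchymal stem cells (mMSC1 to mMSC16), in 5 HL-1 cardiomyocytes (HL1cm1 to HL1cm5, a mouse atrial cardiomyocyte line that served as the negative control) and in 1 population control (PC) of many cells for each cell type. The mMSCs were purchased, were of the strain C57BL/6J by the labels, came from male mice aged 3 months, and were used at passages 6 to 11. They were grown on gelatin in alpha-MEM with 10% fetal bovine serum to partial confluence. HL1cm were used at passages 70 to 85 and grown on fibronectin and gelatin in Claycomb medium with 10% serum and norepinephrine to full confluence. Cells of both types were captured in 1 device, whose chip takes cells of 17 to 25 microns, and HL1cm carried a green cytoplasmic dye. By the labels no group received a cytokine or another stimulus beyond its medium, which for HL1cm held norepinephrine. Cell type, medium, confluence and passage cannot be told apart in any comparison of mMSCs with HL1cm. No source names separate cultures of a cell type, so each cell type stands for 1 sample, and the values below are descriptions without p-values.

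Chemokines are grouped by the spacing of their first cysteines into the CC, CXC and CX3C families, and each family signals through its own G protein-coupled receptors. Stromal cells of the bone marrow are known for Cxcl12, which retains blood stem cells and B cell precursors through Cxcr4, and for Ccl2, which releases monocytes into the blood through Ccr2. Many of the other members are inducible: in most cells Ccl2, Ccl7, Ccl20, Cxcl1 and Cxcl5 respond to NF-kB, and Ccl5 and Cxcl10 respond to both NF-kB and interferon signalling.

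The values are FPKM, fragments scaled by transcript length and by mapped fragments, so levels can be compared roughly between genes. The longest coding transcripts of the members had 532 bases (Ccl5) to 5627 bases (Cxcl12), and an effect of length beyond this scaling was not tested. The FPKM of all genes summed to between 630240 and 2529610 in single mMSC libraries, so levels between cells depend on the scaling as well. Single mMSC libraries held 5198 to 7641 genes above 0 and HL1cm libraries 6788 to 7226, and the controls held 10279 (mMSC-PC) and 10157 (HL1cm-PC). The fewest were in mMSC9 and in mMSC15. The table holds no counts, and the number of fragments behind a value is unknown. An exact 0 can be a failed estimate: the chaperone gene Canx had no value above 0 in mMSC12 but 809 to 1991 FPKM in the other 15 cells, an example picked with its values known. Zeros are therefore given as "listed at 0". The mesenchymal identity of the mMSCs was checked with 12 markers, of which 10 were at 1 FPKM or more in all 16 cells (Vim, Ly6a, Sparc, Cd9 and Thbs1 had the highest medians), and Lum was listed at 0 in all of them. Vim (555 to 1005 FPKM), Sparc (161 to 833 FPKM) and Fn1 (3.79 to 9.31 FPKM) were also in all 5 HL1cm. Of 11 cardiomyocyte markers, 10 reached 1 FPKM in at least 1 HL1cm. Myl7 (20292 to 46701 FPKM), Tnnt2 and Tnni3 were high in all 5. Nppa and Nkx2-5 reached 1 FPKM in only 2 of 5 each. Nppb was listed at 0 in all 5 and was at 57.8 FPKM in HL1cm-PC.

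Of the 9 chemokines, 5 reached 1 FPKM in 8 or more of the 16 mMSCs (Ccl2, Ccl7, Ccl5, Cxcl10 and Cxcl12), against 29.1% of all genes in the table. The other 4 (Ccl20, Cxcl1, Cxcl5 and Cx3cl1) were at this level in 2 mMSCs at most. Each single mMSC had 4 to 6 of the 9 genes at this level (median 5). Among HL1cm this number lay between 0 in HL1cm3 and 4 in HL1cm5.

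**Figure D1:**
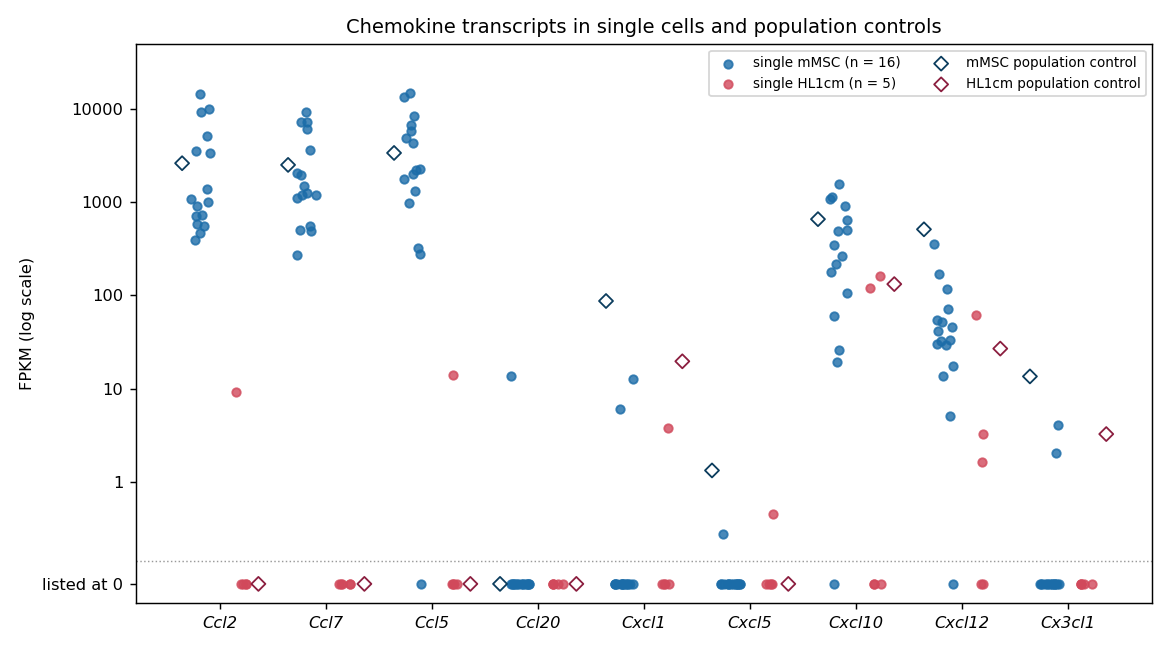
FPKM on a log scale (y axis) of the 9 chemokine genes (x axis) in 16 single mMSCs (blue), 5 single HL1cm (red) and the 2 population controls (open diamonds); values of 0 are drawn under the dotted line, and the sideways scatter has no meaning. Ccl2 and Ccl7 lie above 270 FPKM in all 16 mMSCs, while Ccl20, Cxcl1, Cxcl5 and Cx3cl1 are listed at 0 in 14 or 15 of them.

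RefSeq promoter sequences (GRCm38.p6) were matched for 5 of the 9 genes, Ccl20, Cxcl1, Cxcl10, Cxcl12 and Cx3cl1. No sequence was printed for Ccl2, Ccl7, Ccl5 and Cxcl5. The 250 bases before the transcription start are given for Cxcl10, which was abundant in mMSCs, for Cxcl1, which is an NF-kB target by textbook and was listed at 0 in 14 of 16 single mMSCs, and for Cxcl12, the constitutive marrow chemokine. Capitals mark matches on either strand to the NF-kB consensus, to GAAANNGAAA (the core of an interferon-stimulated response element) and to TGANTCA (an AP-1 site). Cxcl10 is read from the minus strand of chr5:92348890-92349139, Cxcl1 from the plus strand of chr5:90890995-90891244 and Cxcl12 from the plus strand of chr6:117168285-117168534.
Cxcl10: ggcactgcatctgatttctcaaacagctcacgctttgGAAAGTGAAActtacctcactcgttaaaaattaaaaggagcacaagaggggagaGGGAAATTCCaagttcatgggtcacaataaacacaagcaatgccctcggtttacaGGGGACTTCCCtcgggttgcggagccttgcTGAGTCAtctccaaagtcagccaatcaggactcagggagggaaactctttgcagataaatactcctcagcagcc
Cxcl1: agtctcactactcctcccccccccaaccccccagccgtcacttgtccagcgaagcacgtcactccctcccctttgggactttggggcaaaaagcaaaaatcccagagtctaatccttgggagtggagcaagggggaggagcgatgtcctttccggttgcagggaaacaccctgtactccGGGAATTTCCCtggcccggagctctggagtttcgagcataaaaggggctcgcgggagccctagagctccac
Cxcl12: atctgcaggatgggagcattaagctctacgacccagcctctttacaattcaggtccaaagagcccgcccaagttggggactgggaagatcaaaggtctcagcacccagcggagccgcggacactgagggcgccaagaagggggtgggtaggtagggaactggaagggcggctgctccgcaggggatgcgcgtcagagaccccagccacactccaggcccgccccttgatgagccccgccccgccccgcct
In the Cxcl10 promoter the NF-kB consensus matched at 2 separate places (GGGAAATTCC from base -159 and GGGGACTTCC from base -104, where a second match shifted by 1 base overlaps it), the interferon element core matched once (GAAAGTGAAA from base -213) and the AP-1 site once (TGAGTCA from base -74). The Cxcl1 promoter held 1 place with the NF-kB consensus, GGGAATTTCC from base -71, read on both strands. The Cxcl12 promoter held none of the 3 motifs in this window, nor did that of Cx3cl1, and that of Ccl20 held the NF-kB consensus once. Among 32851 mouse promoters of the same length, 7.25% held the NF-kB consensus, 2.98% GAAANNGAAA and 6.75% TGANTCA. These are matches of letters, and binding was not measured.

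The CC chemokines Ccl2 and Ccl7 are monocyte attractants that share the receptor Ccr2, and they were present in every mMSC. Ccl2 (chr11:82035571-82037453, plus strand) ranged from 393 FPKM in mMSC4 to 14527 FPKM in mMSC10, with a median of 1041 FPKM. Ccl7 (chr11:82045712-82047525, plus strand) ranged from 272 FPKM in mMSC12 to 9381 FPKM in mMSC6, with a median of 1387 FPKM. On the log2 scale the mean was 10.70 ± 1.73 for Ccl2 and 10.73 ± 1.56 for Ccl7 (SD, n = 16 cells), so the 2 genes did not differ in level beyond their spread. Ccl2 was the higher of the pair in 7 cells and Ccl7 in 9. Both were detected in 16 of 16 mMSCs, a share of 100% with an exact (Clopper-Pearson) 95% interval from 79.4% that covers counting error only.

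The highest Ccl2 values were among the highest of any gene in a cell. Ccl2 ranked 4th among all genes of the table in mMSC6, mMSC10 and mMSC15, and 307th in mMSC4. Ccl7 ranked 5th in mMSC6 and 445th in mMSC12. Gapdh, a glycolytic housekeeping gene, was at 157 to 319 FPKM in the same cells, and its values spread 2.04-fold from the lowest to the highest, against 37.0-fold for Ccl2 and 34.4-fold for Ccl7. The Ccl2 values left a gap: 10 cells lay between 393 and 1398 FPKM, and 6 cells (mMSC2, mMSC6, mMSC9, mMSC10, mMSC13 and mMSC15) between 3377 and 14527 FPKM. Ccl7 was at 1982 to 9381 FPKM in those 6 cells and at 272 to 2040 FPKM in the other 10, so its values overlapped only narrowly between the 2 ranges.

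Ccl2 and Ccl7 went together from cell to cell. Spearman's rho between them was 0.87 and Pearson's r of the log2 values was 0.89 over 16 mMSCs, which share a device and differ in depth, and whose number of cultures is not given in the sources used here. Leaving out any 1 cell kept rho between 0.84 and 0.90, and leaving out the 2 cells farthest from the median of Ccl2 gave 0.81. Within the 6 cells of high Ccl2 rho was 0.89, and within the 10 cells of lower Ccl2 it was 0.50. The ratio of the 2 genes within a cell, which does not depend on how a library is scaled, had an SD of 0.80 on the log2 scale, and in 11 of 16 cells the 2 genes were within 2-fold of each other. For comparison, the log2 ratio of Ccl2 to Ccl5 had an SD of 2.62 over the 15 cells with both genes.

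The genes lie head to tail with 8258 bases between them in the CC chemokine cluster of chromosome 11. Among 410 pairs of neighbouring genes on 1 strand, at most 20 kb apart and each reaching 1 FPKM in 12 or more mMSCs, the median rho was 0.03, the 95th percentile was 0.53, and Ccl2 with Ccl7 was the highest pair. The transcripts of Ccl2 and Ccl7 shared no word of 25 bases, and their longest identical run was 23 bases against reads of 75 bases. Over 4678 genes compared, the 3 nearest to Ccl2 were Ccl7, the complement protease C1s with a rho of 0.84 and the cilium gene B9d1 with 0.83. The 3 nearest to Ccl7 were Ccl2, B9d1 with 0.86 and C1s with 0.84. Across all genes the median rho to Ccl2 was -0.02, with 5% of the genes above 0.46. The nearest genes, here and for the other members below, are the largest of 4678 values over 16 cells. How large such values become without any relation was not tested.

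**Figure D2:**
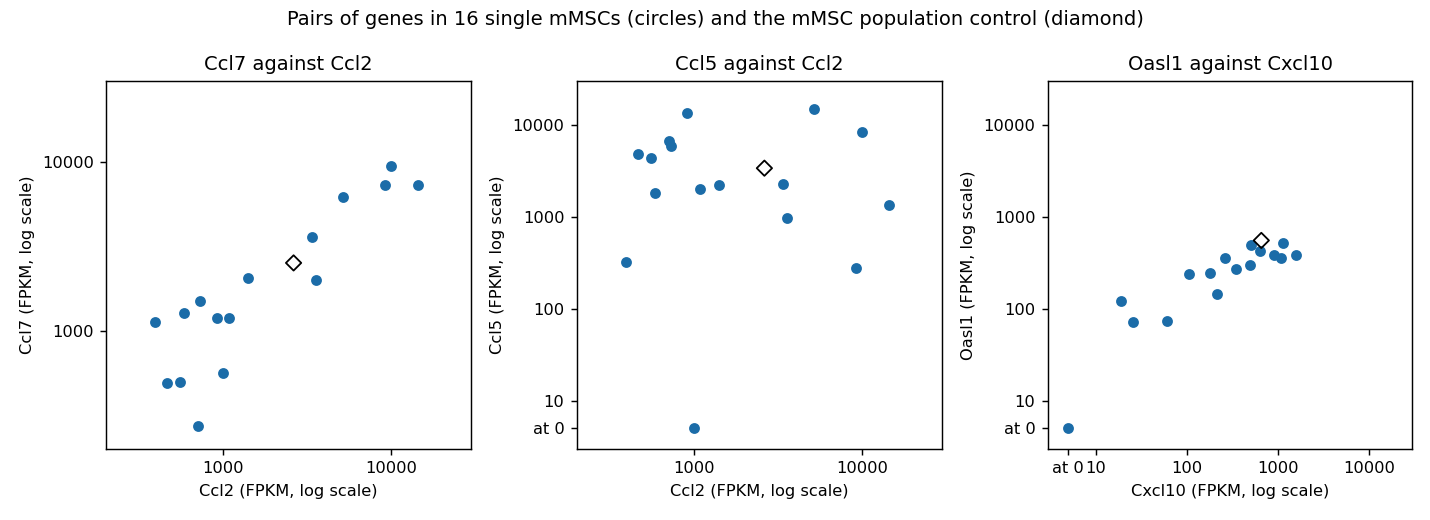
Each panel plots 1 gene against another in FPKM on log scales, with 16 single mMSCs as circles and the mMSC population control as a diamond; values of 0 are drawn at the tick marked at 0. Ccl7 follows Ccl2 (rho 0.87), Ccl5 does not follow Ccl2 (rho -0.03), and Oasl1 follows Cxcl10 (rho 0.91).

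Other genes of the same cluster were listed at 0 or low. Ccl11, an eosinophil attractant 10297 bases beyond Ccl7, and Ccl12 were listed at 0 in all 23 libraries. Ccl8, a monocyte and T cell attractant that starts 67659 bases beyond the end of Ccl7, was above 0 in 6 mMSCs (mMSC3, mMSC4, mMSC5, mMSC8, mMSC11 and mMSC12), at 18.8 to 113 FPKM. In those 6 cells Ccl2 was at 393 to 1398 FPKM with a median of 809 FPKM, and in the 10 cells with Ccl8 at 0 it was at 463 to 14527 FPKM with a median of 3479 FPKM. None of the 6 cells of high Ccl2 had Ccl8 above 0. Over the 16 cells rho of Ccl8 was -0.48 with Ccl2 and -0.47 with Ccl7. This relation was chosen after its values were seen, and Ccl8 was at 26.8 FPKM in mMSC-PC and at 0 in HL1cm.

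Ccl5 (chr11:83525778-83530518, minus strand), which draws T cells and monocytes, was the chemokine with the highest median, and it did not follow Ccl2. It was above 0 in 15 of 16 mMSCs (93.8%, exact 95% interval 69.8% to 99.8%), from 281 FPKM in mMSC15 to 14839 FPKM in mMSC9, and its median over all 16 was 2247 FPKM. In mMSC8 it was listed at 0. Only 3 genes of the table had a single 0 among the mMSCs with all other values above 200 FPKM, namely Ccl5, Canx and Erdr1, so a failed estimate for mMSC8 was not told apart from a lack of transcript. Ccl5 ranked 4th among all genes in mMSC9 and in mMSC11, and 454th in mMSC15.

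The rho of Ccl5 over these 16 cells was -0.03 with Ccl2 and 0.01 with Ccl7. The contrast was plainest in single cells: mMSC11 had 13625 FPKM of Ccl5 and 911 FPKM of Ccl2, while mMSC15 had 281 FPKM of Ccl5 and 9204 FPKM of Ccl2. In mMSC6 and mMSC9 all 3 genes were high, at 5192 FPKM or more. The genes nearest to Ccl5 were Pdpn, a mucin-like stromal surface glycoprotein at 270 to 2415 FPKM (rho 0.86, and 0.83 without mMSC8), Crtap, a collagen prolyl hydroxylation partner (0.78), and Rnpc3, a spliceosome gene (0.77).

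Ccl20, which draws Th17 cells and dendritic cells through Ccr6, was at 13.5 FPKM in mMSC5 and listed at 0 in the other 15 mMSCs, in mMSC-PC and in all HL1cm libraries. The exact 95% interval of its share of mMSCs ran from 0.158% to 30.2%.

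Taken per cell, the 9 chemokines summed to 2221 FPKM in mMSC4 and to 29594 FPKM in mMSC6, a 13.3-fold span with a median of 7579 FPKM. Ccl2, Ccl7 and Ccl5 together made up 57.1% to 99.6% of this sum, with a median of 97.0%. The leading gene was Ccl5 in 9 cells, Ccl2 in 4, Ccl7 in 2 and Cxcl10 in 1. Ccl5 reached 86.5% of the sum in mMSC12 and was 1.65% of it in mMSC15. The pair of Ccl2 and Ccl7 took the opposite range, from 12.6% in mMSC12 to 96.5% in mMSC15. Since shares of 1 sum must trade against each other, these percentages describe the make-up of a cell and not a relation between genes. The population control had 26.8% Ccl2, 25.7% Ccl7 and 34.5% Ccl5.

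**Figure D3:**
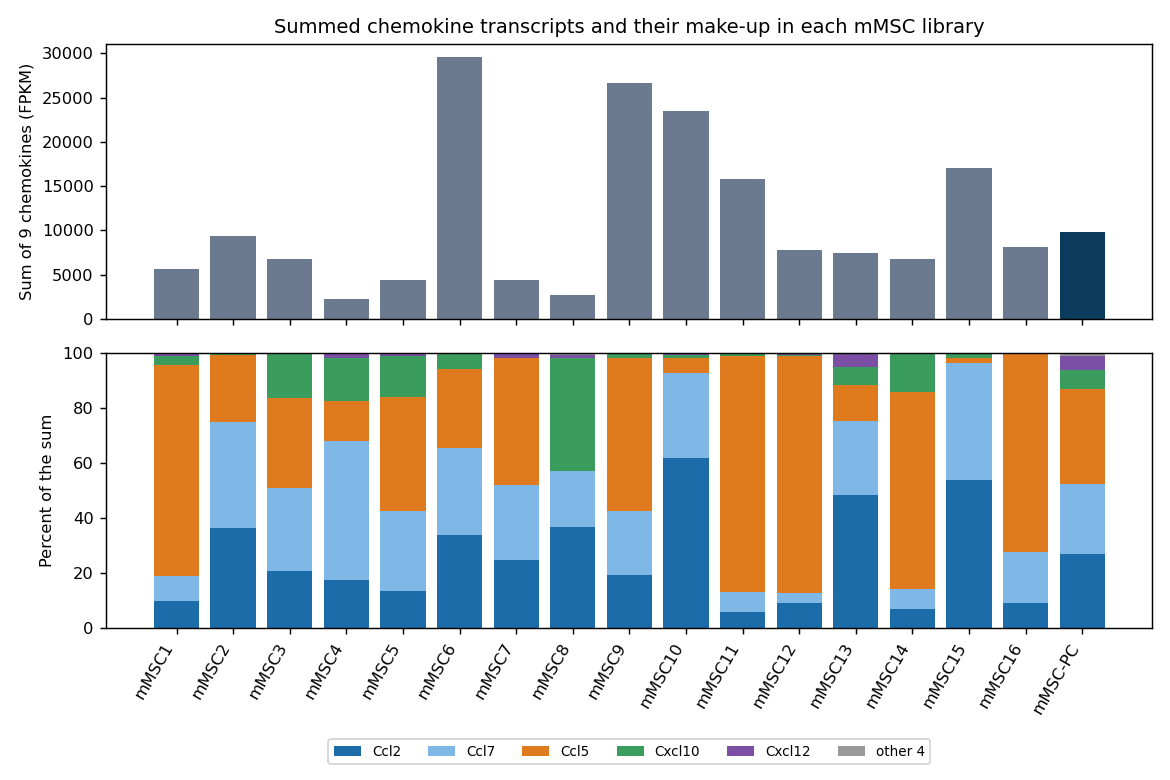
Upper bars give the summed FPKM of the 9 chemokine genes in each single mMSC (grey) and in the population control (dark blue); lower bars give the percent of that sum from each gene. Cells led by Ccl5 (orange, up to 86.5% in mMSC12) stand beside cells led by Ccl2 and Ccl7 (blues, up to 96.5% in mMSC15).

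Among the CXC chemokines Cxcl10, which draws activated T cells and NK cells through Cxcr3, was the most abundant. Cxcl10 (chr5:92346638-92348889, minus strand) was above 0 in 15 of 16 mMSCs, from 19.1 FPKM in mMSC12 to 1589 FPKM in mMSC6, with a median of 306 FPKM over all 16. It was listed at 0 in mMSC7. It was lower than Ccl2 in 13 of 16 cells, lower than Ccl7 in 14 and lower than Ccl5 in 14. In mMSC8, the cell without a Ccl5 value, Cxcl10 was at 1128 FPKM and was the leading chemokine with 41.3% of the sum.

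The gene nearest to Cxcl10 was Oasl1, an interferon-induced antiviral gene, with a rho of 0.91 over 16 mMSCs. Both were listed at 0 in mMSC7, and without that cell rho was 0.90. Oasl1 was at 72.6 to 519 FPKM in the other 15 mMSCs and at 554 FPKM in mMSC-PC, and its promoter held the NF-kB consensus at 1 place and neither of the other motifs. The next nearest were Ssbp3 (0.82) and Vps29 (0.78). Cxcl10 did not follow the interferon genes as a group: over 10 genes of a list of 12 that could be compared, the median rho was 0.05 and 5 were above 0, beside a median of 0.003 over all genes. The highest was Ifih1, a sensor of viral RNA, with 0.41. Cxcl10 did not follow the NF-kB genes as a group either: over 8 compared, the median rho was -0.07 and 4 were above 0. The highest was Nfkbiz, a nuclear cofactor of NF-kB, with 0.62, and the lowest was Tnfrsf1a with -0.33.

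Cxcl12 (chr6:117168535-117181367, plus strand) was lower than Cxcl10 in 14 of 16 mMSCs. It was above 0 in 15 of 16, from 5.02 FPKM in mMSC16 to 357 FPKM in mMSC13, with a median of 37.3 FPKM, and it was listed at 0 in mMSC9, the library with the fewest genes above 0. It was lower than Ccl2 and than Ccl7 in all 16 cells. Its rho with the other 4 common chemokines lay between -0.28 (Ccl5) and 0.22 (Ccl2) in FPKM. Rescaled to TPM, rho with Ccl2 was 0.54 and with Ccl7 it was 0.39 in place of 0.05. The genes nearest to Cxcl12, the largest of 4678 values, were Snrpb2 (0.83), Isca1 (0.81) and Sla2 (0.80), with 5% of all genes above 0.44.

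Cxcl1 and Cxcl5, neutrophil attractants that act on Cxcr2, were listed at 0 in most single mMSCs. Cxcl1 (chr5:90891241-90893115, plus strand) was at 6.06 FPKM in mMSC6, at 12.7 FPKM in mMSC8 and listed at 0 in the other 14. Cxcl5 (chr5:90759360-90761624, plus strand) was at 0.277 FPKM in mMSC13 and listed at 0 in the other 15. Cx3cl1, a membrane-tethered chemokine for monocytes and NK cells, was at 2.01 FPKM in mMSC10, at 4.09 FPKM in mMSC13 and listed at 0 in the other 14. With 2 of 16 cells each, the exact 95% interval for Cxcl1 and Cx3cl1 was 1.55% to 38.3%.

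The spread of Ccl5 and of Cxcl10 between mMSCs rested in large part on 1 cell at 0 each. The SD of log2 FPKM (values under 1 FPKM set to 1) was 3.31 for Ccl5, rank 28 of the 6777 genes that reached 1 FPKM in 8 or more mMSCs, and 2.77 for Cxcl10, rank 109. It was 1.97 for Cxcl12, 1.73 for Ccl2 and 1.56 for Ccl7, beside a median of 1.499 over these genes. Without mMSC8 the SD of Ccl5 was 1.74, rank 2356 when all genes were taken in the same 15 cells, and near that of Ccl2. Without mMSC7 the SD of Cxcl10 was 1.97 (rank 1456), and without mMSC9 that of Cxcl12 was 1.49 (rank 3271). The rho of a member with the number of genes above 0 in a library was between -0.19 (Ccl2) and 0.35 (Cxcl10), and the part of depth in the spread was not tested.

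In HL1cm, the negative control, Ccl2, Ccl7 and Ccl5 were listed at 0 in most or all cells. Ccl2 was at 9.16 FPKM in HL1cm5 and listed at 0 in the other 4 cells and in HL1cm-PC. Ccl7 was listed at 0 in all 5 cells and in HL1cm-PC, where 0 of 5 cells allows a share of up to 52.2%. Ccl5 was at 14.1 FPKM in HL1cm4 and at 0 elsewhere. The lowest mMSC lay above the highest HL1cm for 2 members, Ccl2 and Ccl7, beside 1.91% of the 13543 genes that reached 1 FPKM in 1 or more single cells. For Ccl5 the groups overlapped through mMSC8.

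The means of log2 FPKM, with values under 1 FPKM set to 1, differed between mMSCs and HL1cm by 10.06 for Ccl2, 10.73 for Ccl7, 9.92 for Ccl5, 4.72 for Cxcl10 and 3.41 for Cxcl12. These 5 of 8 members compared were higher in mMSCs by at least 1, beside 18.8% of all genes compared. The differences of Ccl20, Cxcl1 and Cx3cl1 were 0.23, 0.01 and 0.19, and Cxcl5 reached 1 FPKM in no single cell. The median difference was 4.07 over the 8 members and 0.08 over all genes. Of all genes that differed by at least 1 in either direction, 49.2% were higher in mMSCs, and 21.0% when libraries were scaled by reference genes instead.

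Cxcl10 and Cxcl12 were present in some HL1cm. Cxcl10 was at 162 FPKM in HL1cm2, at 121 FPKM in HL1cm5 and at 0 in the other 3, and at 132 FPKM in HL1cm-PC, so its values lay inside the range of the mMSCs. The Cxcl10 gene lies within Art3, which is transcribed from the opposite strand, and 133 of its 2252 exon bases are also exon bases of Art3. Art3 was at 458 to 1359 FPKM in the 5 HL1cm and at 1085 FPKM in HL1cm-PC, and it was listed at 0 in 14 of 16 mMSCs with a highest value of 15.6 FPKM. No source used here states that counting used strand, and in HL1cm reads from Cxcl10 and Art3 cannot be told apart where they overlap. Cxcl12 was at 61.3 FPKM in HL1cm1, 1.64 FPKM in HL1cm4 and 3.24 FPKM in HL1cm5, at 0 in the other 2, and at 26.9 FPKM in HL1cm-PC. Cxcl1 was at 3.73 FPKM in HL1cm5 and at 19.6 FPKM in HL1cm-PC.

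In the mMSC population control 4 of the 9 chemokines were higher than in any single mMSC, namely Cxcl12, Cxcl1, Cx3cl1 and Cxcl5, and Ccl20 was listed at 0. Cxcl12 was at 512 FPKM in mMSC-PC, 7.67 times the mean of the 16 cells and above the highest of them (357 FPKM). Cxcl1 was at 87.1 FPKM in mMSC-PC, against 12.7 FPKM in the highest cell. Cx3cl1 was at 13.5 FPKM against 4.09 FPKM, and Cxcl5 at 1.32 FPKM against 0.277 FPKM. These 4 members lay above every single cell, beside 13.8% of the 9625 genes that reached 1 FPKM in mMSC-PC.

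The abundant chemokines of mMSC-PC lay inside the range of the cells. Ccl2 was at 2624 FPKM in mMSC-PC, 0.781 times the mean of the cells, Ccl7 at 2517 FPKM (0.881 times), Ccl5 at 3383 FPKM (0.775 times) and Cxcl10 at 659 FPKM (1.39 times). Against the median of the cells Ccl2, Ccl7 and Ccl5 turned to the other side, at 2.52, 1.82 and 1.51 times it. Rescaled to TPM, mMSC-PC was above the mean for 7 of the 9 members in place of 5, so not all of Ccl2, Ccl7 and Ccl5 stayed below it. Over those 9625 genes the median ratio was 1.28, and for Gapdh it was 2.60. Between 4 (Cxcl10) and 7 (Ccl5) of the 16 cells exceeded the population control. There was 1 population control per cell type, with no replicate, and in such a bulk sample a larger share of cells with a transcript and more transcript per cell cannot be told apart. mMSC-PC also held 10279 genes above 0 where a single mMSC held 7641 at most, and the part of this in the 4 members was not tested.

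The other chemokine ligands were listed at 0 or low. Of 29 further ligands, 19 were listed at 0 in all 16 mMSCs and in mMSC-PC, among them Ccl3 and Ccl4. None of the 29 reached 1 FPKM in 8 or more mMSCs, beside 29.1% of all genes. The summed level of the 29 in a single mMSC was 0 to 122 FPKM, with a median of 21.3 FPKM, beside 7579 FPKM for the 9 genes above. Both sets were chosen with earlier results of these data known. Cxcl16, a transmembrane ligand of Cxcr6, was at 1 FPKM or more in 7 mMSCs with a highest value of 11.1 FPKM. The interferon-inducible Cxcl9 and Cxcl11, which share the receptor Cxcr3 with Cxcl10 and lie beside it on chromosome 5, were in 4 mMSCs (up to 13.8 FPKM) and 5 mMSCs (up to 45.6 FPKM). The Cxcl11 gene lies within Art3 as well, without shared exon bases.

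Ccl25, a thymus and gut chemokine, was the ligand with the widest presence in HL1cm, at 14.3 to 118 FPKM in all 5 and at 5.79 to 33.5 FPKM in 6 mMSCs. It shares 204 exon bases with Elavl1 on the opposite strand, which was at 18.5 to 78.6 FPKM in all mMSCs and 22.4 to 55.9 FPKM in all HL1cm, so reads in the overlap cannot be assigned. Ccl9 was at 1 FPKM or more in 3 HL1cm and 3 mMSCs, and Ccl17 in 2 HL1cm (up to 27.8 FPKM) and no mMSC.

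Most receptor genes were listed at 0 in mMSCs, which in a table without counts does not show that they were not transcribed. Of 18 receptor genes, 12 were listed at 0 in all 16 mMSCs, including Ccr2 (the receptor of Ccl2 and Ccl7), Ccr1 (of Ccl5), Cxcr3 (of Cxcl10), Cxcr4 (of Cxcl12) and Ccr6 (of Ccl20). The share of all genes listed at 0 is not given here. Of the 18, 1 reached 1 FPKM in 8 or more mMSCs, beside 29.1% of all genes. In mMSC-PC, Ccr1 was at 0.843 FPKM, and Ccr2, Cxcr3, Cxcr4 and Ccr6 were at 0. Cxcr2, the receptor of Cxcl1 and Cxcl5, was the receptor found in all 16 mMSCs, at 1.10 to 13.6 FPKM with a median of 4.25 FPKM, and it was at 5.55 to 39.1 FPKM in 4 of 5 HL1cm. Cxcr6 was in 5 mMSCs (8.0 to 86.1 FPKM) and Ccr4 in 4 (up to 5.35 FPKM). The Cxcr6 gene lies over Fyco1 of the opposite strand, which reached 11.5 FPKM in mMSCs, without shared exon bases.

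Ackr3, listed in the table as Cxcr7, is an atypical receptor that binds Cxcl12 and clears it. It was at 1 FPKM or more in 9 of 16 mMSCs, from 1.22 FPKM in mMSC7 to 81.0 FPKM in mMSC15, and at 32.8 FPKM in mMSC-PC. In HL1cm it reached 0.797 FPKM in 1 cell. Ccrl2, which presents chemerin to other cells, was in 2 mMSCs and in 4 HL1cm, where it was at 13.95 FPKM at most.

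**Figure D4:**
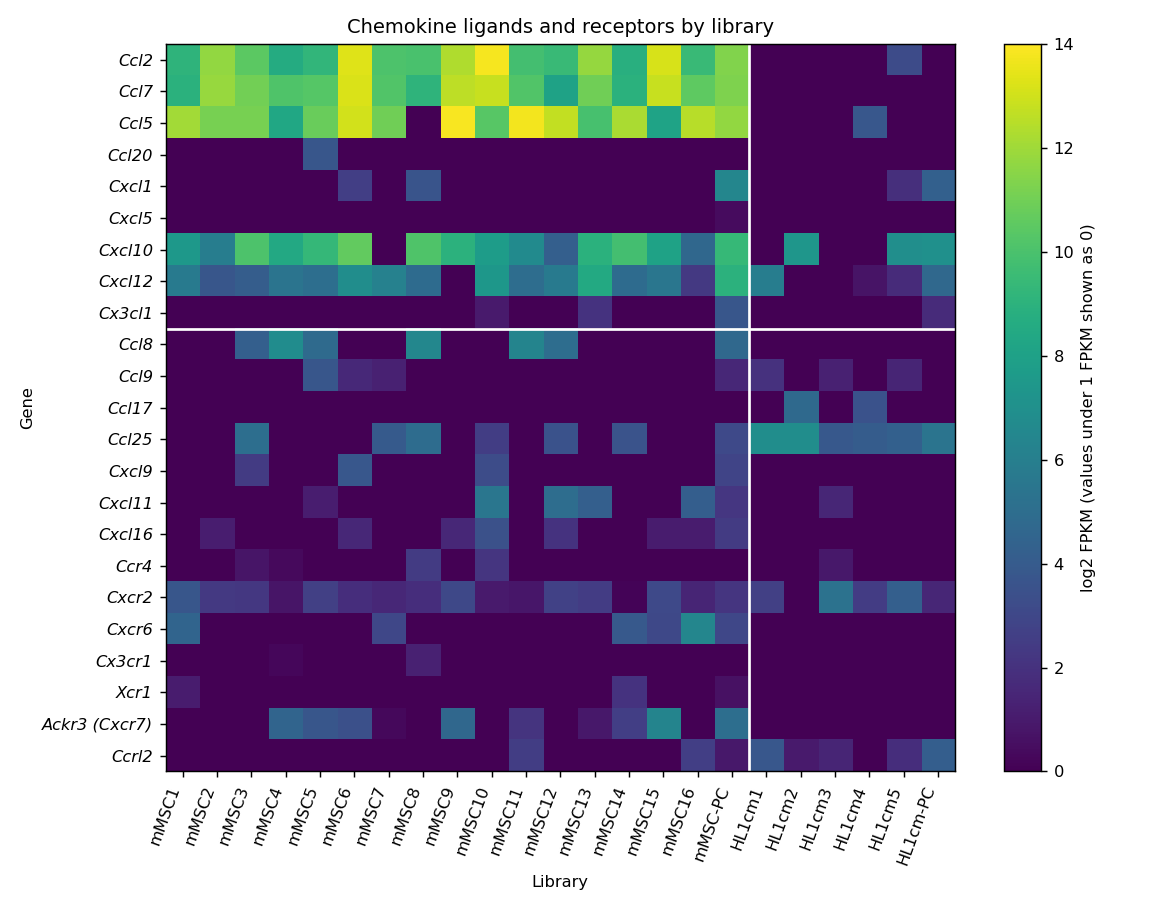
Colour gives log2 FPKM (values under 1 FPKM shown as 0) of the 9 chemokines (above the white line) and of 14 other chemokine ligands and receptors that reached 1 FPKM in 2 or more single cells, in 16 mMSCs, mMSC-PC, 5 HL1cm and HL1cm-PC. Cxcr2 is found in all 16 mMSCs, Ccl25 in all 5 HL1cm, and Ccl8 in 6 mMSCs.

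A list of 12 genes held those that bind or cut chemokines outside the cell, with Ext1 and Ndst1, which build heparan sulphate. Of these, 10 reached 1 FPKM in 8 or more mMSCs, beside 29.1% of all genes, and 7 did so in all 16. Sdc4, a heparan sulphate proteoglycan that holds chemokines at the surface, was at 663 to 5193 FPKM. Mmp2, a protease that cleaves Ccl7 and Cxcl12, was at 22.1 to 291 FPKM in mMSCs and reached 1.54 FPKM in HL1cm. The sheddase Adam10, which releases Cx3cl1, was at 28.6 to 119 FPKM, and the syndecans Sdc1 and Sdc2 had medians of 52.4 and 32.9 FPKM. Dpp4, which trims Cxcl12 and Cxcl10, was listed at 0 in all 23 libraries. Among the 11 genes of this list compared, 7 were higher in mMSCs than in HL1cm by at least 1 (log2) and 0 lower. Over all 13543 genes compared, 18.8% were higher and 2623 were lower. The median difference of the 11 genes was 1.80.

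Genes of NF-kB signalling were at moderate levels. Of 17 genes, 13 reached 1 FPKM in 8 or more mMSCs, beside 29.1% of all genes. By at least 1 on the log2 scale, 8 were higher in mMSCs than in HL1cm and 3 lower, with a median difference of 0.49. Over all 13543 genes compared, 2540 were higher and 2623 lower. The feedback inhibitor Nfkbia was above 0 in 15 mMSCs with a median of 44.5 FPKM, Tnfrsf1a (the TNF receptor) in 14 with 28.1 FPKM, Nfkbiz in 15 with 26.0 FPKM, the subunit Rela in 14 with 23.5 FPKM and the adaptor Myd88 in 14 with 16.8 FPKM. Relb and Nfkb2 were higher in HL1cm, with medians of 11.4 and 11.0 FPKM there. Over the 8 genes compared cell by cell, the median rho was 0.14 to Ccl2 and 0.15 to Ccl7. The highest was Ikbkb, an activating kinase of the pathway, with 0.73 to Ccl2 and 0.82 to Ccl7, and it was chosen after its values were seen.

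Other inflammatory genes that are often induced with chemokines were partly present. Ptgs2, which makes prostaglandins, was at 119 to 646 FPKM in all 16 mMSCs and Csf1, the macrophage growth factor, at 71.6 to 595 FPKM. Vcam1 was in 14 mMSCs and in 5 HL1cm, and Lif in 10 mMSCs. Il1b and Tnf were listed at 0 in all 23 libraries, and Icam1 in all mMSCs and in mMSC-PC. Of the 10 genes of this list compared, 4 were higher in mMSCs by at least 1 and 1 lower, with a median difference of 0.91. Of all 13543 genes compared, 2540 were higher and 2623 lower by this measure. Il6 was above 0 in 9 mMSCs, at 7.38 to 204 FPKM, and its rho with the 5 common chemokines lay between 0.08 (Ccl2 and Ccl5) and 0.35 (Cxcl12). The median of Ccl2 was 1082 FPKM in the 9 cells with Il6 and 1001 FPKM in the 7 without. That of Ccl5 was 2002 and 4316 FPKM, of Ccl7 1271 and 1502 FPKM, of Cxcl10 348 and 215 FPKM, and of Cxcl12 45.6 and 29.4 FPKM, with ranges that overlapped for each gene.

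All 12 interferon response genes listed reached 1 FPKM in 8 or more mMSCs, and 8 of them in all 16. Ifit1 (153 to 2106 FPKM), Ifit3 (69.5 to 1100 FPKM) and Gbp2 (62.0 to 1004 FPKM) had no value above 0 in the 5 HL1cm or in HL1cm-PC. Irf7 and Isg15 had medians of 143 and 114 FPKM in mMSCs and were each above 1 FPKM in 1 HL1cm. Of the 12 genes, 11 were higher in mMSCs by at least 1 and 1 was lower (Irf3), with a median difference of 4.86. All genes gave 18.8% higher by this measure, 2623 of 13543 lower, and 29.1% found in 8 or more mMSCs. To Ccl5, 6 of 10 genes compared had a rho above 0, with a median of 0.17.

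Ccl2, Ccl7 and Ccl5 are also products of macrophages, which can be carried along in marrow cultures. Of 11 macrophage and haematopoietic markers, 5 were listed at 0 in all 16 mMSCs and in mMSC-PC: Ptprc (CD45), Lyz2, Emr1, Tyrobp and Laptm5. The share of all genes listed at 0 is not given here. Of all 23284 genes, 13543 reached 1 FPKM in 1 or more single cells of either type. Of the 11 markers, 2 reached 1 FPKM in 8 or more mMSCs, beside 29.1% of all genes. Cd14, which stromal cells also transcribe, was above 0 in 15 mMSCs with a median of 62.5 FPKM, and Csf1r was in 8 mMSCs at up to 32.6 FPKM. Of these 8, 4 were among the 6 cells of high Ccl2 (mMSC2, mMSC9, mMSC10 and mMSC15), and rho of Csf1r was 0.48 with Ccl2, 0.59 with Ccl7 and -0.15 with Ccl5. Csf1r overlaps Hmgxb3 on the opposite strand, which reached 13.8 FPKM in mMSCs. Cd68 was at 48.1 FPKM in 1 mMSC and at 12.6 FPKM in mMSC-PC. Cd74 was in 2 mMSCs (up to 10.9 FPKM) and Fcer1g in 1 (9.79 FPKM). For Itgam no single mMSC reached 1 FPKM, while the mMSC population control had 1.38 FPKM and the highest HL1cm 1.10 FPKM. The part of these markers in the levels of Ccl2 and Ccl7 was not tested. The summed level of the 11 markers was 3.10 to 369 FPKM in mMSCs and 0 to 1.10 FPKM in HL1cm. For Cd14 Spearman's rho was 0.35 with Ccl2, 0.24 with Ccl7 and -0.36 with Ccl5. Of 7 endothelial markers 6 were at 0 in all mMSCs, with Kdr at 10.8 FPKM in 1 cell. None of these 7 and none of 11 cardiomyocyte markers reached 1 FPKM in 8 or more mMSCs, beside 29.1% of all genes. The summed level of the cardiomyocyte markers was 0 to 65.4 FPKM.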

How the data were processed

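RNA of 16 single mMSCs and 5 single HL1cm was turned into cDNA in a Fluidigm C1 device (SMARTer kit), made into Nextera XT libraries and sequenced as paired reads of 75 bases. A bulk control of each type was processed in parallel, and per the labels by the same steps. Per the labels and methods the authors aligned reads to mm10 with TopHat2 2.0.12 and estimated FPKM with Cufflinks 2.2.1, and they deposited FPKM values for 23284 genes in 23 libraries. No column was left unassigned (0). Counts were not used here, and steps of whole reads could not be read from the low values, so no count model was fitted.

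FPKM was used as deposited. A gene was taken as present at 1 FPKM or more, and for log2 values those under 1 FPKM were set to 1. Groups came from the sample titles, and each cell type was treated as 1 sample without tests. The 9 members and the 12 other gene lists were chosen with earlier results of these data known. Named from each list were the 5 genes with the highest median in mMSCs (at 1 FPKM or more in at least 4) and the 3 highest in HL1cm (in at least 2). For each member found in at least 12 mMSCs, the 3 genes of largest Spearman's rho were named, and Il6 and Gapdh always. Exceptions are marked or are members of a list given for a stated role, chosen after their values were seen. Of the reference genes, only Gapdh is given, and some genes of the lists are not reported here. Coordinates are from GENCODE M21 (GRCm38, the same assembly as mm10), and promoters from RefSeq. The ranking by likeness was checked on simulated data of 4679 genes, where the planted partner ranked 1st in 48 of 50. That check covered only the ranking of a partner with a planted correlation. How reliable the genes named here as nearest are was not tested by it. Alternatives changed the limit of detection, the log scale, the scaling and the cells included. The scripts ran in Python 3.11.15 with scipy 1.17.1, pandas 2.3.3, matplotlib 3.10.9 and numpy 2.4.6.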

Additional observations from a re-analysis of the deposited data

Results flagged for a closer look

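In a group of 5 HL1cm, 1 cell stood apart from the other 4 by more than Dixon's 95% limit for 4 of the chemokines on the log2 scale. Ccl2 was at 9.16 FPKM in HL1cm5, Ccl5 at 14.1 FPKM in HL1cm4 and Cxcl1 at 3.73 FPKM in HL1cm5, each with the other 4 cells at 0. Cxcl12 was at 61.3 FPKM in HL1cm1, with the others between 0 and 3.24 FPKM and a gap of 0.714 of the range. Chance alone passes this limit in about 1 of 20 groups of normally distributed values, and a group with 4 cells at 0 and 1 above 1 FPKM passes it always. HL1cm5 had 2 of these values, and the cause was not tested.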

How the results depend on the processing

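The number of common members (5), of members without overlap between mMSCs and HL1cm (2) and of members above the median spread (5) was the same under every alternative run for it, although without mMSC9 Cxcl12 (1.49) stood barely above the median of the same cells (1.46) and below that of all 16 (1.499); leaving out each HL1cm in turn gave 2 each time. Spearman's rho of Ccl2 with Ccl7 was 0.87, and 0.80 without the 2 mMSCs with the fewest genes above 0. Chosen after seeing the data, it was 0.50 in the 10 cells of lower Ccl2 and 0.81 without the 2 cells farthest from the median. Rescaled to TPM, rho with Cxcl12 was 0.54 and not 0.22 for Ccl2, and 0.39 and not 0.05 for Ccl7. Against the median of the single cells in place of the mean, mMSC-PC was higher for 8 members, and Ccl2, Ccl7 and Ccl5 were the ones that turned. Against the mean, mMSC-PC was higher for 5 members in FPKM and for 7 in TPM. With values under 10 FPKM set to 10 the difference of Ccl2 was 7.38 and of Ccl7 7.41. Scaling by reference genes moved the median of all genes by -0.63, and none of the 5 differences changed sign. Over all genes it left 1384 higher and 5202 lower in mMSCs by at least 1 (2540 and 2623 before) and 147 without overlap (259 before), and with values under 10 FPKM set to 10 there were 882 higher and 918 lower. Of other values, 2 of 72 differences (the 2 just given), 2 of 27 rho values (those with Cxcl12) and 3 of 18 numbers of cells (Cxcl1, Cxcl5 and Cx3cl1) moved beyond their limits, and 0 of 23 SDs. No paired analysis was possible because the groups share no replicate of a common source and no result comes from a test. Cells from an unknown number of cultures and 1 population control per type limit every statement, and low FPKM values rest on an unknown number of fragments.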
